A study of Mus musculus with 6 samples.

Results

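MicroRNAs (miRNAs) of red blood cells were followed in small RNA from mouse brain cortex: the products of the miR-144/miR-451a cluster and of the miR-486 locus. The members were chosen by name, as 7 mature products of these loci, and 6 of the 7 matched a row among the 1182 features of the count table. These are mmu-miR-451a, mmu-miR-144-3p, mmu-miR-144-5p, mmu-miR-486a-5p, mmu-miR-486a-3p and mmu-miR-486b-3p, named below without the species prefix, and mmu-miR-486b-5p is not analysed here. The 6 libraries came from untreated adult males, 3 with Fmr1 knocked out (KO) and 3 age-matched wild types (WT). The sources used here do not give strain, age or the Fmr1 allele, and the labels do not say that each library is 1 animal, so p-values measure the spread between these libraries. Fmr1 encodes FMRP, an RNA-binding protein of neurons, and its messenger RNA is not measured by small RNA sequencing, so the genotype could not be checked here. Cortices were washed and homogenised whole, and removal of blood by perfusion is not mentioned. The tissue therefore holds neurons, glia, vessels and any blood left in them.

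The miR-144/miR-451a cluster is transcribed as 1 precursor in erythroid cells under the transcription factor GATA1, and miR-451a is among the most abundant miRNAs of mature red cells. It is known for restraining Ywhaz and for protecting red cells from oxidative stress, while miR-144-3p is known as a repressor of the antioxidant regulator Nfe2l2. The locus of miR-486 lies in Ank1, the gene of the red cell membrane protein ankyrin, and its product acts on Foxo1 in erythroid cells and in muscle. Levels of miR-451a and miR-486 are in common use as a measure of haemolysis or blood in a sample. In bulk tissue, more cells of a type and more RNA in each cell cannot be told apart.

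The mature sequences are shown because the seed, bases 2 to 8 in capitals, sets which messenger RNAs a miRNA pairs with, and because miR-144-3p resembles the far more abundant miR-101 family. The RefSeq table used here (GRCm38.p6) matched 3 of the 7 members.
miR-451a: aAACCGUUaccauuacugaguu
miR-144-3p: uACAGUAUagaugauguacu
miR-144-5p: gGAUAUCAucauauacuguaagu
miR-101a-3p, for comparison: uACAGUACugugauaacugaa
miR-101b-3p, for comparison: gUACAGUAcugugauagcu
The seeds of the 3 members shown all differ from each other, and those of miR-486 were not compared. Bases 2 to 7 of miR-144-3p are shared with miR-101a-3p and with no other row whose sequence was at hand (970 of 1182 rows), and 0 rows shared them with miR-451a or miR-144-5p. The annotated miR-101b-3p begins 1 base earlier, so that its seed holds the same letters shifted by 1 position.

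Both hairpins of the cluster lie on the plus strand of chromosome 11 (GRCm38), Mir144 at chr11:78073005-78073070 and Mir451a at chr11:78073170-78073241, 99 bases apart. Neither overlaps another gene of the GENCODE annotation except Mir451b, which is annotated on the opposite strand of Mir451a. The nearest protein-coding gene is Eral1, 135 bases from Mir451a on the minus strand. The hairpins are shown with the mature products in capitals because the pair is made in unlike ways.
Mir144 hairpin: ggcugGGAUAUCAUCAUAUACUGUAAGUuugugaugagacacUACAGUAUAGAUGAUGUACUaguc
Mir451a hairpin: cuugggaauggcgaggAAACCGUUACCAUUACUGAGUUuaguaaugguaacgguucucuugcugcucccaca
In Mir144 the 5p product (bases 6 to 28) and the 3p product (bases 43 to 62) lie on opposite arms of the stem, as is usual for hairpins cut by Dicer. In the predicted fold of Mir451a the single product (bases 17 to 38) takes 18 bases of the 5p side and the whole loop of 4 bases. This hairpin is known to be cut by Argonaute 2 in place of Dicer, a route that yields no 3p partner. The 72 bases of Mir451b are the reverse complement of Mir451a, and a run of 16 of the 22 bases of miR-451a also occurs in Mir451b. No row of the table bears the name miR-451b, and whether reads of that strand were counted in the row of miR-451a was not tested.

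Mir486 lies on the plus strand in an intron of Ank1 (chr8:23142555-23142682), and Mir3107, which RefSeq also lists as mir-486b, on the minus strand within it (chr8:23142573-23142662). Counts of miR-486a-5p were 803, 503 and 466 in the KO libraries and 689, 566 and 677 in the WT libraries. Those of miR-486a-3p were 816, 505 and 467 in KO and 696, 584 and 694 in WT. Those of miR-486b-3p were 800, 500 and 465 in KO and 684, 565 and 675 in WT. In each library the 3 rows thus held almost the same number: miR-486a-5p exceeded miR-486b-3p by 1 to 5 reads, and fell short of miR-486a-3p by 1 to 18 reads. The largest gap between any 2 of them was 3.25%. Outside miR-486, 13 pairs among rows with at least 200 reads over the 6 libraries agreed within 4% in every library, and in all 9 of these with both sequences at hand the products were antisense to each other over at least 15 bases. The labels do not state whether reads were assigned by strand. The arms and copies of miR-486 therefore cannot be told apart, and the 3 rows are treated below as 1 measurement, represented by miR-486a-5p.

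In cortex, miR-451a and miR-486 were present in every library at 28.8 to 80.1 CPM (reads per 1000000 after TMM scaling), while both arms of miR-144 stayed near 1 CPM. No member differed between KO and WT at an adjusted p under 0.05 (edgeR quasi-likelihood test), as for all 541 tested miRNAs (0% called, 0 of 541). All 6 rows passed the filter on low counts. DESeq2 and limma-voom also called 0 miRNAs. Without KO replicate 3 edgeR called 18 of 560 miRNAs, none of them a member. With all libraries 0 of the 6 rows had an unadjusted p under 0.05 in this fit, against 35 of the 541 (6.47%). Of the 6 member rows, 3 are the same measurement of miR-486. For miR-451a the unadjusted p was 0.0105 in edgeR with no count filter (adjusted p = 0.793) and 0.0325 in DESeq2 (adjusted p = 0.999). The KO and WT groups overlapped for all 6 rows, against 15.7% of all miRNAs with groups that did not overlap.

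**Figure D1:**
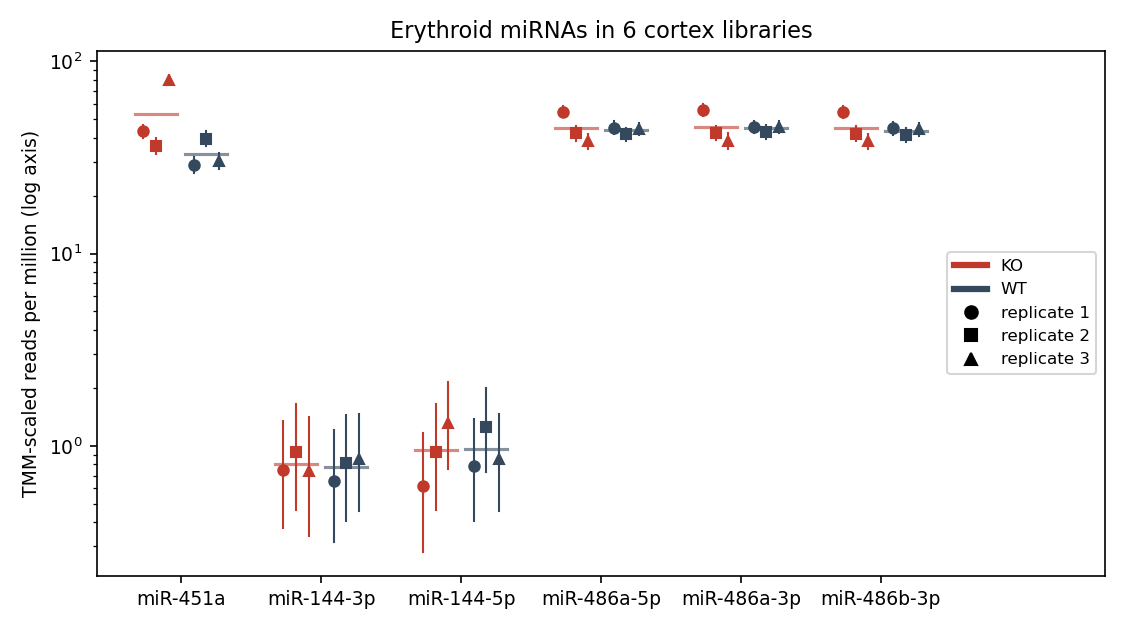
Level of each row in each library, in CPM after TMM scaling on a log axis, with KO in red and WT in dark grey. Points are libraries with an exact Poisson 95% interval of their count, and horizontal lines are group means; miR-451a of KO replicate 3 lies at 80.1 CPM, above the other 5 libraries.

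Among the members, miR-451a showed the widest spread within KO. Within WT miR-144-5p did, with a coefficient of variation of 26.0%, where counting alone gives 26.7%. The coefficient of miR-451a within WT was 17.8%. For mmu-miR-451a KO replicates 1, 2 and 3 gave 43.3, 36.2 and 80.1 CPM, and the WT libraries gave 28.8, 39.7 and 30.3 CPM. KO replicate 3 was the highest of all, KO replicate 1 lay above every WT library, and KO replicate 2 lay below WT replicate 2. The KO mean was 53.2 ± 23.6 CPM against 32.9 ± 5.88 CPM for WT (SD, n = 3 per group). The edgeR fit gave a log2 fold change of 0.69 with an SE of 0.31, a 95% interval from -0.02 to 1.40 and an adjusted p of 0.747. Without KO replicate 3 the log2 fold change was 0.28 (edgeR adjusted p = 0.396). The counts behind these levels were 634, 430 and 972 in KO and 440, 539 and 461 in WT, for which counting alone gives a coefficient of variation of 3.84% in KO and 4.56% in WT. The observed coefficients were 44.4% and 17.8%, so the libraries differed by more than counting error in both groups. By rank, miR-451a stood between places 156 and 230 of the 1182 features.

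KO replicate 3 stood apart for many miRNAs. It was the highest library for 159 and the lowest for 208 of the 541 tested, while KO replicate 1 was the highest for 144 and the lowest for 90. Over the counts of all but the rarest miRNAs KO replicate 1 lay farther from the other KO libraries (chi-square per degree of freedom 1020 and 1165) than these did from each other (691), and pairs of WT libraries gave 54.7 to 68.6. For miR-451a KO replicate 3 lay 1.18 log2 units above the mean of the other 5 libraries, and 47 of the 541 miRNAs lay at least as far above. Summed levels of a list of 6 choroid plexus and cilia miRNAs were 2110 CPM in this library and 969 to 1044 CPM in the others. Most of this sum in KO replicate 3 came from miR-204-5p (1621 CPM) and miR-34c-5p (468 CPM). Whether the shift of this library has a part in the level of miR-451a was not tested.

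Levels of miR-486a-5p were close together. The KO libraries gave 54.8, 42.3 and 38.4 CPM for mmu-miR-486a-5p, and the WT libraries 45.2, 41.7 and 44.5 CPM. The KO libraries held both the highest and the lowest value, and the WT libraries lay between KO replicate 1 and KO replicate 3. The KO mean was 45.2 ± 8.56 CPM against 43.8 ± 1.86 CPM for WT (SD, n = 3 per group). The edgeR fit gave a log2 fold change of 0.05 with an SE of 0.19, a 95% interval from -0.39 to 0.48 and an adjusted p of 0.947. The interval thus allows a change of up to 0.48 log2 units upward or 0.39 downward, and the sign of the estimate turned without KO replicate 1 (log2 fold change -0.10). In WT the coefficient of variation was 4.24%, against 3.94% from counting alone, whereas in KO it was 19.0% against 4.11%. A wider spread in KO was common in the table: the median SD of log2 CPM over all tested miRNAs was 0.40 in KO and 0.14 in WT. Values of miR-486a-3p and miR-486b-3p were those of the same measurement, with log2 fold changes of 0.03 (SE 0.19) and 0.05 (SE 0.19).

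Both arms of miR-144 were rare. Counts of miR-144-3p, the arm that targets Nfe2l2, were 11, 11 and 9 in KO and 10, 11 and 13 in WT. For mmu-miR-144-3p this gave 0.751, 0.925 and 0.742 CPM in the KO libraries, against 0.655, 0.81 and 0.855 CPM for WT, with both groups in the same range. The edgeR log2 fold change was 0.06 with an SE of 0.37, a 95% interval from -0.80 to 0.91 and an adjusted p of 0.970. Counting alone gives a coefficient of variation of 31.1% in KO and 29.7% in WT, above the observed 12.8% and 13.5%, so a difference between libraries was not detectable at this depth.

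Counts of miR-144-5p were 9, 11 and 16 in KO and 12, 17 and 13 in WT. For mmu-miR-144-5p this gave 0.614, 0.925 and 1.32 CPM in the KO libraries, against 0.787, 1.25 and 0.855 CPM for WT. KO replicate 1 was the lowest and KO replicate 3 the highest, with the WT libraries between them. The edgeR log2 fold change was -0.02 with an SE of 0.42, a 95% interval from -0.996 to 0.95 and an adjusted p of 0.993, and its sign turned with other scalings. The arms were about equally frequent, at 0.928 ± 0.336 reads of miR-144-3p per read of miR-144-5p in KO, against 0.827 ± 0.177 for WT (SD, n = 3 per group). By a two-sided exact permutation test this gave p = 0.8, also after adjustment over 5 ratios.

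**Figure D2:**
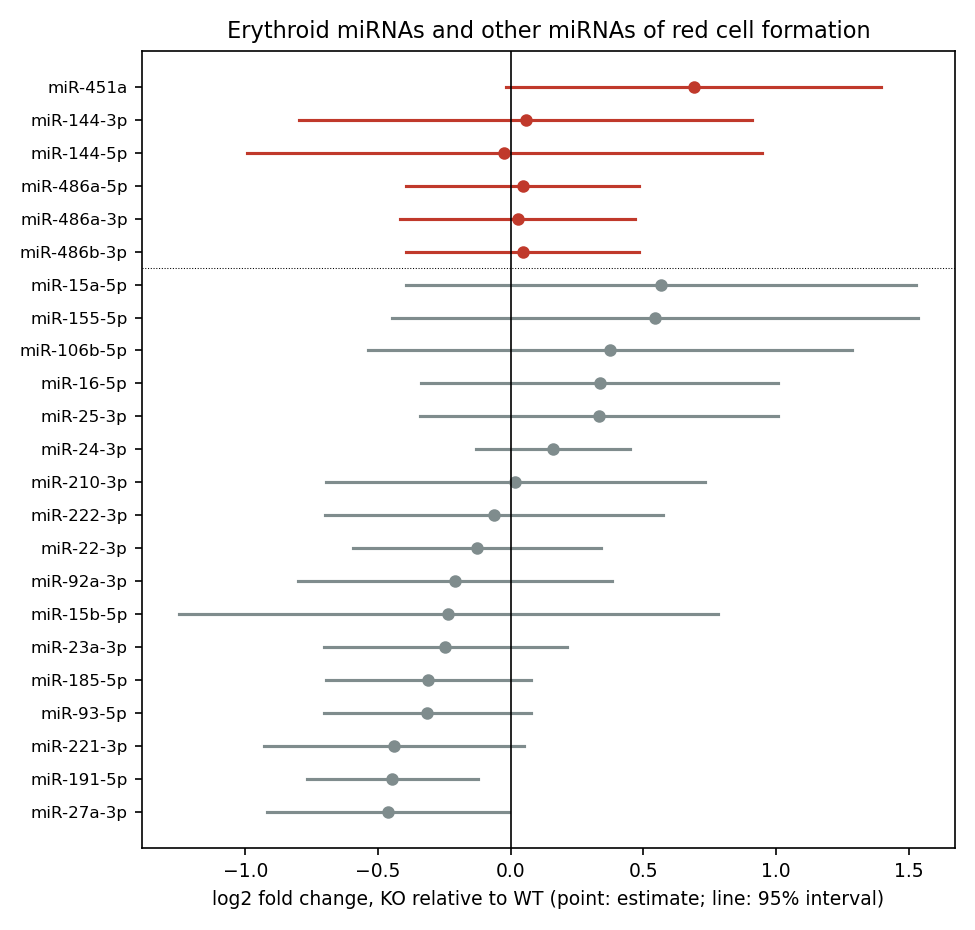
Log2 fold change of KO relative to WT on the x axis, with points for edgeR estimates and lines for 95% intervals; the 6 rows of erythroid miRNAs are in red and the 17 tested miRNAs of the list for red cell formation in grey. Of the erythroid rows miR-451a has the highest estimate, 0.69, and all 6 intervals include 0.

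Although miR-451a and miR-144 come from 1 precursor, their reads were far from equal. Per read of miR-144-3p there were 57.6, 39.1 and 108 reads of miR-451a in the KO libraries and 44, 49 and 35.5 in the WT libraries. The highest and the second highest ratio were in KO, while KO replicate 2 lay among the WT libraries. The ratio of miR-144-3p to miR-451a was 0.56 log2 units lower on average in KO (difference -0.56, two-sided exact permutation test p = 0.3, 0.5 when adjusted over 5 ratios). The difference was -0.16 without KO replicate 3 and -0.89 without KO replicate 2. The smallest p that 3 libraries against 3 can give is 0.1. Ligation of adaptors captures miRNAs with unequal efficiency, so the ratio of reads of different miRNAs is not a ratio of molecules, though it can be compared between libraries.

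The balance between the loci set KO replicate 3 apart. Per read of miR-486a-5p there were 0.79, 0.855 and 2.09 reads of miR-451a in KO and 0.639, 0.952 and 0.681 in WT. In 5 of the 6 libraries miR-486a-5p had more reads than miR-451a, and in KO replicate 3 it had fewer. The mean ratio was 1.24 ± 0.73 for KO against 0.757 ± 0.17 for WT (SD, n = 3 per group), a mean log2 difference of 0.59 (two-sided exact permutation test p = 0.3, 0.5 when adjusted over 5 ratios). Without KO replicate 3 this difference was 0.14.

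**Figure D3:**
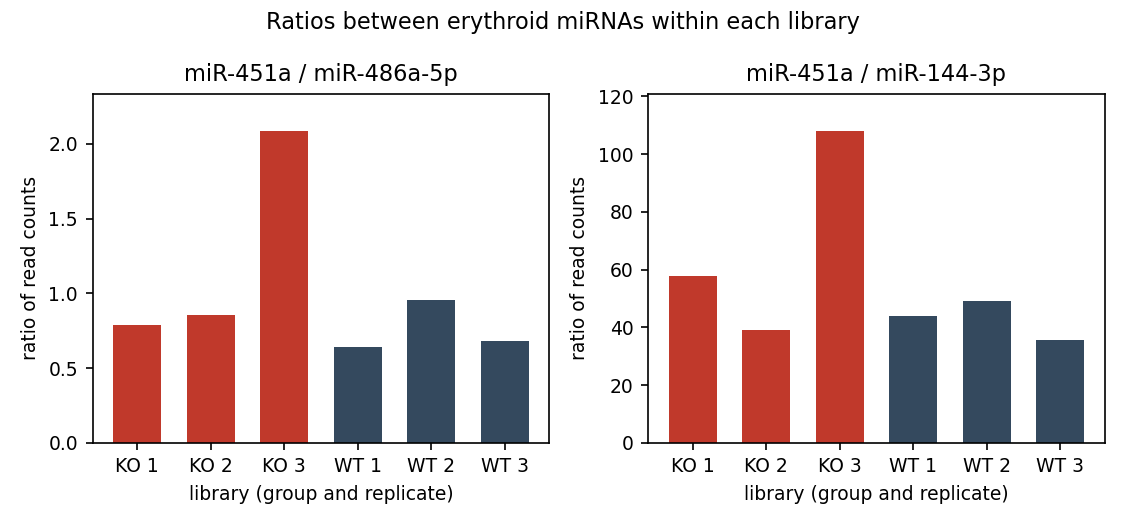
Reads of miR-451a per read of miR-486a-5p (left) and per read of miR-144-3p (right) in each library, as bars from 0, with KO in red and WT in dark grey. KO replicate 3 has the highest bar in both panels, 2.09 and 108.

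Over the 6 libraries no positive relation between the loci passed the threshold. Between miR-451a and miR-486a-5p Pearson's r of log2 CPM was -0.38 (exact permutation p = 0.375, adjusted p = 0.625 over 10 pairs) and Spearman's rho -0.43 (exact permutation p = 0.419, adjusted p = 0.839). Without KO replicate 3 and WT replicate 1, the libraries farthest from the median of miR-451a, r was 0.50. The sign turned without KO replicate 3 alone (r = 0.40) and did not without WT replicate 1 alone (r = -0.39). Without KO replicate 1 the negative relation passed the threshold (r = -0.97 over 5 libraries, adjusted exact permutation p = 0.0417). Between miR-451a and miR-144-3p r was -0.11 (exact permutation p = 0.8125, adjusted p = 0.8125) and rho -0.09 (exact permutation p = 0.919, adjusted p = 1), and r was -0.64 without KO replicate 3 and WT replicate 1. Between miR-451a and miR-144-5p r was 0.55 (exact permutation p = 0.278, adjusted p = 0.625). Without KO replicate 1 this positive relation passed the threshold (r = 0.84 over 5 libraries, adjusted exact permutation p = 0.0417). Without KO replicate 3 its r was -0.00586. A negative relation between miR-144-5p and miR-486a-5p passed the threshold (r = -0.92, exact permutation p = 0.00139, adjusted p = 0.0139; rho = -1, exact permutation p = 0.00278, adjusted p = 0.0278) and had r = -0.88 without KO replicates 1 and 3. It was lost when libraries were scaled by total counts (r = -0.34, adjusted exact permutation p = 0.804), and it missed the threshold in each of the 6 runs that left out 1 library (r from -0.95 to -0.87 over 5 libraries, adjusted exact permutation p from 0.0556 to 0.292). With 5 libraries the exact test has fewer pairings, and its smallest possible p is larger than with 6. These misses alone therefore do not show a weaker relation. The relation rests on 9 to 17 reads of miR-144-5p per library.

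The miRNAs whose pattern over the 6 libraries was nearest to that of miR-451a were miR-34c-3p (r = 0.97), miR-496a-3p (r = 0.97), miR-139-5p (r = 0.96), miR-331-3p (r = 0.96) and miR-29c-5p (r = 0.95), out of 535 compared. All 5 were highest in KO replicate 3. For example, miR-34c-3p had 2.66, 2.19 and 5.94 CPM for KO against 2.03, 2.14 and 1.71 CPM for WT, and miR-29c-5p had 57.6, 52.1 and 113.9 CPM for KO against 42.5, 42.3 and 38.2 CPM for WT. Nearest to miR-486a-5p were miR-770-3p (r = 0.98), miR-504-5p (r = 0.97), miR-1981-5p (r = 0.97), miR-3057-5p (r = 0.97) and miR-676-3p (r = 0.96). These 5 were highest in KO replicate 1 and had KO replicate 3 as their lowest library. Levels of miR-770-3p were 555.2, 362.1 and 332.4 CPM for KO against 427.9, 360 and 428.5 CPM for WT. These correlations describe 6 libraries that share their scaling, and the miRNAs were picked for them.

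**Figure D4:**
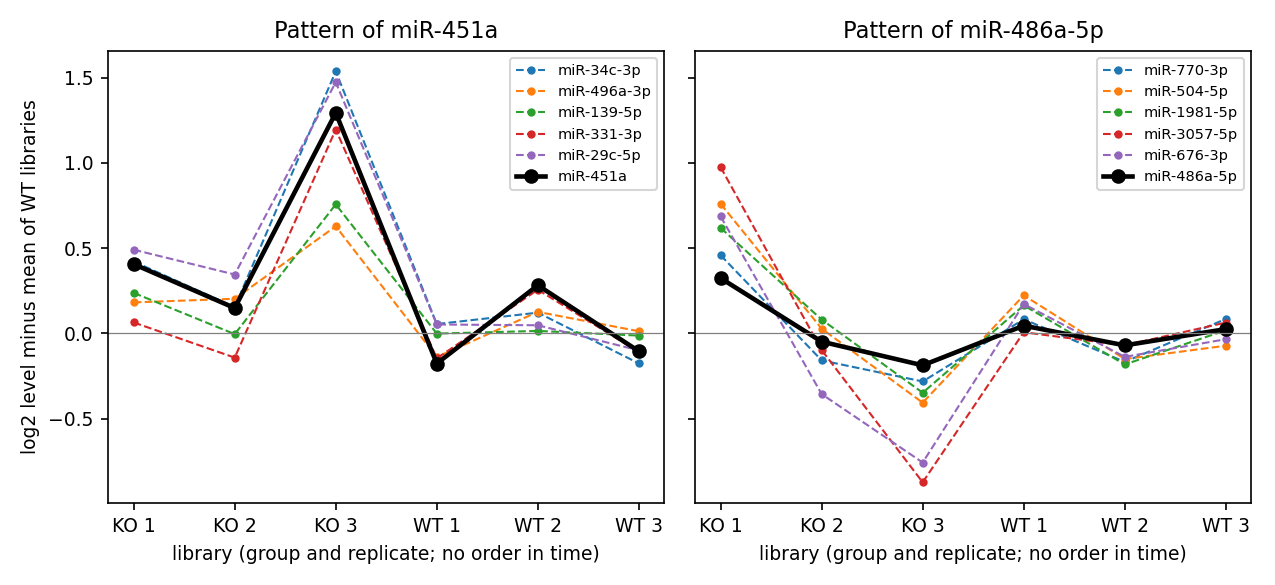
Log2 level minus the mean of the WT libraries in each library for miR-451a (left) and miR-486a-5p (right), black, with the 5 miRNAs of most similar pattern as dashed lines. The left group peaks in KO replicate 3 and the right group in KO replicate 1.

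The seed neighbour of miR-144-3p was among the abundant miRNAs of cortex. The miR-101 family, which is widely expressed in brain, had 4011 ± 725 CPM of miR-101a-3p for KO against 3228 ± 379 CPM for WT (SD, n = 3 per group), with an edgeR log2 fold change of 0.31 (SE 0.18, adjusted p = 0.749). For miR-101b-3p the levels were 1435 ± 116 and 1284 ± 128 CPM. Of the reads with bases 2 to 7 in common, miR-144-3p made up 0.0205% ± 0.00398 in KO and 0.0241% ± 0.00416 in WT, and the rest was miR-101a-3p. Per read of miR-144-3p there were 4828 to 8350 reads of both miR-101 products. The log2 ratio of miR-144-3p to them differed by -0.20 between genotypes (two-sided exact permutation test p = 0.6, 0.75 when adjusted over 5 ratios), and by -0.05 without KO replicate 3 and -0.07 without WT replicate 3.

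Other miRNAs linked to red cell formation went both ways. Of a list of 18, 17 were tested, 7 with higher and 10 with lower values in KO and 0 called, with a median log2 fold change of -0.13 beside 0.03 over all tested miRNAs (edgeR). The list holds miR-16-5p, which is abundant in red cells and in most tissues. It had 180.9, 198.6 and 392.7 CPM for KO against 205.8, 208.4 and 197.7 CPM for WT, so that here too KO replicate 3 was highest. In contrast miR-92a-3p, also abundant in red cells, was lowest there, with 90.4, 82.2 and 47.4 CPM for KO against 89.1, 79.2 and 86.1 CPM for WT, as was miR-25-3p with 173.9, 168.1 and 79.4 CPM for KO against 108.7, 113.5 and 112.6 CPM for WT. The most abundant of the list, miR-24-3p, an inhibitor of the activin receptor gene in erythroid cells, had 5303 ± 276 CPM for KO against 4746 ± 114 CPM for WT. Its counts cannot be told apart from those of the antisense miR-3074-5p. For miR-22-3p the log2 fold change was -0.13 (SE 0.20). At an unadjusted p under 0.05 (6.47% of all tested) were miR-191-5p, known from red cell enucleation, with a log2 fold change of -0.45 (SE 0.14, edgeR adjusted p = 0.694), and miR-27a-3p with -0.46 (SE 0.20, edgeR adjusted p = 0.747). The Kit repressors miR-221-3p and miR-222-3p gave -0.44 (SE 0.21) and -0.06 (SE 0.28) on the same scale.

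Markers of other parts of blood and of vessels were compared beside miR-451a. Leukocyte and platelet miRNAs, 7 tested of 8, had 6 higher and 1 lower value in KO and 0 calls, with a median log2 fold change of 0.33 and summed levels of 319, 299.4 and 459.4 CPM for KO against 259 to 275 CPM for WT. The neutrophil and platelet miRNA miR-223-3p had 13, 3 and 15 reads in KO and 9, 4 and 10 in WT, too few to be tested. Lymphocyte-rich miR-150-5p had 90, 68.2 and 118.2 CPM for KO against 90.1, 75.3 and 75.7 CPM for WT, and miR-342-3p 100.3, 78.6 and 263.4 CPM for KO against 91.9, 83.3 and 99.2 CPM for WT. These and miR-451a were each highest in KO replicate 3. For miR-146a-5p that library was the lowest, with 109.6, 131.7 and 62.6 CPM for KO against 78.3 to 81.8 CPM for WT. KO replicate 3 was also the lowest for miR-142a-5p, with 14.9, 16.1 and 8.0 CPM for KO against 10.4, 13.9 and 10.4 CPM for WT. For the other arm, miR-142a-3p, it was the highest, with 1.16, 2.10 and 3.96 CPM for KO against 1.05, 1.99 and 1.32 CPM for WT. Endothelial and mural miRNAs, 6 tested, had 5 higher and 1 lower value, 0 called, and a median log2 fold change of 0.12. The summed levels of this list were 44248, 44571 and 38494 CPM for KO against 36723, 35241 and 42580 CPM for WT. Its most abundant member, miR-143-3p, had 36476, 36819 and 30329 CPM for KO against 29485, 28104 and 34850 CPM for WT. The endothelial miR-126a-3p had 7749 ± 219 CPM for KO against 7229 ± 314 CPM for WT, and 8001 CPM in KO replicate 3. Also in that list, miR-143-5p had an unadjusted p under 0.05 and a log2 fold change of -0.73 (SE 0.27, edgeR adjusted p = 0.705). Whether blood content has a part in the level of miR-451a was not tested.

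Since miR-486 is also a muscle miRNA, 7 miRNAs of striated muscle were looked up. Of 4 tested, 3 had higher and 1 lower values and 0 were called, with a median log2 fold change of 0.08. The muscle miRNA miR-1a-3p had 283.8, 206.8 and 213.2 CPM for KO against 216.3, 216.8 and 232.9 CPM for WT, highest in KO replicate 1 as was miR-486a-5p. The list did not share this pattern. While miR-206-3p was also highest in KO replicate 1 (3.62 CPM), miR-499-5p was highest in KO replicate 2 (4.96 CPM). In KO replicate 1 miR-133a-3p was lowest, with 1.84, 2.86 and 5.44 CPM for KO against 3.21, 2.58 and 2.96 CPM for WT. The heart-specific miR-208b-3p had 1 read in 1 library and 0 in the other 5, and miR-133b-3p had 1 to 5 reads. Liver and plasma miRNAs, 3 tested of 4, had 0 higher and 3 lower values and 0 calls. Among neuronal miRNAs 6 of 6 were tested, with 3 higher and 3 lower and a median of -0.04. Their summed levels were 298669 to 438365 CPM, most of it from miR-9-5p and miR-128-3p, and miR-451a and miR-486 stood several orders of magnitude below these sums. The gap was smaller for single neuronal miRNAs such as miR-138-5p, with 235 ± 109 CPM for KO against 228 ± 19.7 CPM for WT.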

How the data were processed

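Per the labels' protocols, total RNA of brain cortex was ligated to adaptors at both ends, amplified, size-selected and read from 1 end. The submitters' processing notes name Bowtie, DESeq2 and mm10. The sources used here do not give versions, trimming, the miRNA annotation, strand or multi-mapping. The authors deposited whole-number read counts per mature miRNA and, per the file headers, TPM values, which differ from the count per 1000000 counted reads by at most 4.9e-10 and were not used further. Columns were matched to sample titles by number, and 0 value columns were left over.

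Counts were fitted in R 4.3.3 with edgeR 4.0.16 (filterByExpr at a minimum count of 10, 541 of 1182 features kept, TMM, robust quasi-likelihood test, Benjamini-Hochberg adjustment over 541, threshold 0.05). Standard errors and 95% intervals come from this fit. Log2 CPM used a prior count of 2. Total counts were 11182888 to 15733876 per library. Poisson intervals cover counting error only, since reads are not unique molecules. Within a genotype, chi-square per degree of freedom between libraries was 54.7 or more, and none looked duplicated. Ratios and correlations used exact permutation tests (SciPy 1.17.1). They kept miR-486a-5p and miR-486a-3p as separate rows. The adjustments over 5 ratios and 10 pairs therefore include these rows set against each other. Hairpins were folded with RNAfold (ViennaRNA 2.7.2). Positions are from GENCODE M21 (GRCm38). On simulated counts 85% of 2-fold and 100% of 4-fold changes were recovered in the comparison of KO with WT (525 features). These rates hold for the simulated counts only and do not give the power of the real comparison. Real KO libraries differed far more from each other (chi-square per degree of freedom 691 to 1165) than WT libraries did (54.7 to 68.6). Recovery under such unequal spread was not tested.

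The members and lists were chosen with earlier results of these data known. Named miRNAs were the members, the 5 nearest in pattern to miR-451a and to miR-486a-5p, seed neighbours, and list members by abundance or an unadjusted p under 0.05. Near-identical rows were sought among rows with at least 200 reads in all. Their tolerance of 4% was set after the counts were seen. Alternatives were other scalings, no count filter, DESeq2 1.42.0, limma-voom 3.58.1, near-identical rows counted once, an offset of 0.5, miR-486 rows summed and each library left out.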

Additional observations from a re-analysis of the deposited data

How the results depend on the processing

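For miR-451a the log2 fold change stayed above 0 in 13 of 13 alternatives (0.28 to 0.88) and passed in none (adjusted p 0.382 to 0.999). Over all miRNAs 0 were called except without KO replicate 3 (0 to 18 calls over left-out libraries, 18 of 560 without that library, none of them a member). At an unadjusted p under 0.05 there were 35 with all libraries, 40 by DESeq2 and 33 by limma-voom. The sign of miR-144-5p turned with DESeq2 size factors (0.0109), scaling without the 5 most abundant miRNAs (0.0716), DESeq2 (0.00245) and near-identical rows counted once (0.00419). Over left-out libraries the log2 fold changes ranged from -0.32 to 0.24 for miR-144-5p, -0.0938 to 0.15 for miR-144-3p, -0.10 to 0.16 for miR-486a-5p, -0.13 to 0.15 for miR-486a-3p and -0.10 to 0.16 for miR-486b-3p. The log2 ratio of the miR-144 arms ranged from -0.12 to 0.44 and the other 4 ratios kept their sign. With total counts r turned to 0.38 (miR-451a with miR-144-3p), 0.18 and 0.15 (miR-451a with miR-486a-5p and miR-486a-3p), 0.10 and 0.13 (miR-144-3p with the same), and was -0.34 and -0.33 for miR-144-5p with them. Over left-out libraries, in the same order, r ranged from -0.71 to 0.24, -0.97 to 0.40, -0.97 to 0.42, -0.41 to -0.07, -0.41 to -0.03, -0.95 to -0.87 and -0.95 to -0.82. It ranged from -0.00586 to 0.84 for miR-451a with miR-144-5p, -0.0607 to 0.39 between the miR-144 arms and 0.985 to 0.998 between the rows of miR-486a. List medians ranged from -0.18 to -0.0930 (red cell formation), 0.18 to 0.51 (leukocytes and platelets) and 0.0495 to 0.60 (choroid plexus and cilia, lowest without KO replicate 3), and those of neurons (-0.13 to 0.06), muscle (-0.08 to 0.20) and liver (-0.16 to 0.06) crossed 0. The causes were not tested. The median log2 fold change of all tested miRNAs was 0.0272 with TMM and 0.11 without the 5 most abundant. Read counts near 10 limit miR-144, whose intervals reach about 1 log2 unit. No paired analysis was possible because the labels give no replicate numbers shared between genotypes. The replicate numbers used here follow the order of the sample titles within each genotype and do not pair libraries.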
